A study of Mus musculus with 36 samples.

Results

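Late nuclear changes in hypoxia were measured in C166 cells, a mouse endothelial line derived from yolk sac. Nuclear RNA of C166 cells kept at 1% oxygen for 24h was compared with nuclear RNA of C166 cells kept at 1% oxygen for 2h, with 3 libraries at each time. These 6 libraries, chosen by their labels of line, fraction and time, belong to a series of 36, and 15735 of its 26400 gene rows had enough reads to be tested. Beside them stand 3 nuclear C166 libraries from normoxia, the C166 cytoplasm at the same times, and the nucleus of the mutant line C1.1. No normoxic library is labelled 24h. For every change between 2h and 24h, time in culture therefore cannot be told apart from time in hypoxia. In C1.1 a copy of the miR-466c hairpin (mmu-mir-466c-1) was deleted by CRISPR from an intron of Sfmbt2, which holds other copies. This line is a single clone of C166. A difference between the lines therefore cannot be told apart from a difference of that clone. The study asked whether miR-466c regulates Vegfa in hypoxic cells, and it sequenced both cell fractions of both lines to follow other genes. Ribosomal RNA had been depleted before sequencing, so unspliced, spliced and noncoding RNA could be sequenced together. Whether reads from introns entered the counts per gene is not given in the sources used here. The labels number the replicates but do not say that they were separate cultures. The p-values therefore measure the spread between these libraries, which may be technical.

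Hypoxia stabilises the alpha subunits of the hypoxia-inducible factors (HIFs), which are otherwise hydroxylated by oxygen-dependent prolyl hydroxylases and degraded. HIFs pair with Arnt and bind short DNA elements near genes of glucose uptake, glycolysis, angiogenesis and mitophagy. Sterol synthesis consumes oxygen at several steps and is controlled by the SREBP factors, which leave the endoplasmic reticulum (ER) for the nucleus when sterols are scarce. RNA in the nucleus is closer to transcription than RNA in the cytoplasm, but it also includes transcripts that are retained there.

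Proximal promoters are shown for a few genes of the lists discussed below. These lists were chosen because the HIF targets, the glycolytic genes and the sterol genes moved as groups at 24h. For Hilpda, Ddit4 and Car9 only the sequence is given, and their changes are not described. Promoter sequences came from RefSeq on build GRCm38.p6, and 9760 of the genes tested matched by symbol. The letters ACGTGC, found in many HIF-binding elements, were searched on both strands in the 250 bases before each start. They stood in 8.02% of all matched promoters, in 7 of 19 matched promoters of the HIF targets outside metabolism, in 6 of 21 of the glucose and glycolysis genes, and in 1 of 27 of the ribosome biogenesis genes. In the 9 windows of 64 bases that follow, capitals mark ACGTGC or its reverse complement GCACGT, and each window reads 5′ to 3′ along the gene.
Bnip3, chr7:138909579-138909642, minus strand: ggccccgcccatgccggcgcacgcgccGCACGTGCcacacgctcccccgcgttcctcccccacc
Ankrd37, chr8:46000037-46000100, minus strand: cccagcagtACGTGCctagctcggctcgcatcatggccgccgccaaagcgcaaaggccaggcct
Hilpda, chr6:29272554-29272617, plus strand: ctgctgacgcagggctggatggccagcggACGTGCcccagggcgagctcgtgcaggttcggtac
Ddit4, chr10:59951923-59951986, minus strand: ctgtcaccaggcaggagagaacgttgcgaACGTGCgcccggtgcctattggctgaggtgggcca
Car9, chr4:43506962-43507025, plus strand: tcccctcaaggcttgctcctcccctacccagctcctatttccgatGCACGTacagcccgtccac
Slc2a1, chr4:119108680-119108743, plus strand: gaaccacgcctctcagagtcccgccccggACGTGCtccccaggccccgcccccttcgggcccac
Pgk1, chrX:106186939-106187002, plus strand: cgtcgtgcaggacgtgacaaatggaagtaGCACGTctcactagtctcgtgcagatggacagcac
Ldha, chr7:46845740-46845803, plus strand: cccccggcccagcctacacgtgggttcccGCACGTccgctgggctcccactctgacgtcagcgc
Pfkfb3, chr2:11553955-11554018, minus strand: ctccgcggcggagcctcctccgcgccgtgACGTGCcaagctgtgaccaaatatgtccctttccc
In Bnip3 both orientations overlap in the palindrome GCACGTGC. Pfkfb3 has the letters although its level was lower at 24h, so a match is a description of the sequence and no more. 3 windows of sterol genes show letters known from their regulation. CCAAT, which is bound by NF-Y, stood on either strand in 40.8% of all matched promoters, in 18 of 19 matched sterol promoters and in 7 of 27 ribosome biogenesis promoters. TCACCCCAC, the sterol element, stood in 0.676% of all matched promoters and in 1 of 19 sterol promoters, that of Hmgcs1. Capitals mark TCACCCCAC in Hmgcs1, and CCAAT or its reverse complement ATTGG in Idi1 and Insig1.
Hmgcs1, chr13:119690186-119690249, plus strand: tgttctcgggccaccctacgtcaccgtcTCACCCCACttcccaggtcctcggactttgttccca
Idi1, chr13:8885542-8885605, plus strand: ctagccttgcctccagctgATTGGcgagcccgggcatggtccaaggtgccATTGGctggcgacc
Insig1, chr5:28071166-28071229, plus strand: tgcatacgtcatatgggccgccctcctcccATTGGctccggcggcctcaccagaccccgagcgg

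The 6 libraries had total counts of 19269751 to 24940907. Of the 18 nuclear libraries, the first principal component (47.35% of the variance) separated the lines and the next (19.1%) separated C166 at 24h, at −59.1 to −52.0, from C166 at 2h, at 16.8 to 20.5. Replicate 3 of C166 at 24h and replicate 2 of C1.1 at 2h stood apart from their groups on the component after that (4.873%), and no library was left out. Replicates differed by 3.36 to 34.8 times the sampling noise, so none was a copy of another. By this measure replicate 1 was the most distant of C166 at 24h, at 34.8 and 29.2 from replicates 2 and 3, which differed by 14.8. Replicate 1 had 16386 genes detected, against 18404 and 16827 in replicates 2 and 3. Its snoRNA and scaRNA genes held 0.0604% of the counts, against 0.137% and 0.117%. Few endothelial markers were detected. Of 18 endothelial markers, 12 had a row in the table and 5 had enough reads to be tested, Cdh5 and Sox18 had no count in the 6 libraries, and Pecam1 had 9 counts at each time. The markers tested summed to 8.91 to 18.2 CPM at 24h and 6.06 to 8.15 CPM at 2h, where CPM is a gene's count scaled to a common library size after TMM normalisation. Markers of smooth muscle and mesenchyme, 13 of 17 of them tested, summed to 6881 to 9523 CPM at 24h and 8096 to 8915 CPM at 2h. Blood markers summed to 7.04 to 13.1 CPM at 24h and 5.80 to 7.35 CPM at 2h, and Ptprc, Hba-a1, Gata1 and Cd3e had no count. Epithelial markers summed to 139.8 to 166.3 CPM at 24h and 25.7 to 30.7 CPM at 2h, nearly all of it Krt19, a keratin, while Cdh1 and Apoa1 had no count. In bulk RNA such as this, fewer cells of a type and less RNA per cell cannot be told apart.

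Between 2h and 24h a large share of the nuclear transcriptome moved. By edgeR's quasi-likelihood test, 2815 genes were higher at 24h (17.9% of those tested) and 2589 were lower (16.5%) at a Benjamini-Hochberg adjusted p under 0.05. At least 2-fold changes were less even, with 938 higher and 345 lower, and at least 4-fold changes numbered 271 higher and 96 lower. The median log2 change over all genes tested was 0.01. The change from normoxia to 2h, which shares the 2h libraries with the late comparison, had called 216 genes higher (1.37%) and 146 lower (0.928%). That early count of 362 was 193 without replicate 2 of normoxia, 239 without replicate 3 of normoxia and 226 without replicate 1 of 2h. The 146 lower genes became 42 without replicate 2 of normoxia, 92, 72, 71, 90 and 87 without replicate 1 or 3 of normoxia or replicate 1, 2 or 3 of 2h, and 345 with only the compared libraries. Genes of different level moved differently. In the decile of genes with the lowest mean level 5.65% were higher and 2.99% lower, in the fifth decile 25.8% were higher and 11.1% lower, and in the decile with the highest level 17.6% were higher and 37.7% lower. Fewer reads allow fewer calls among the lowest genes.

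**Figure D1:**
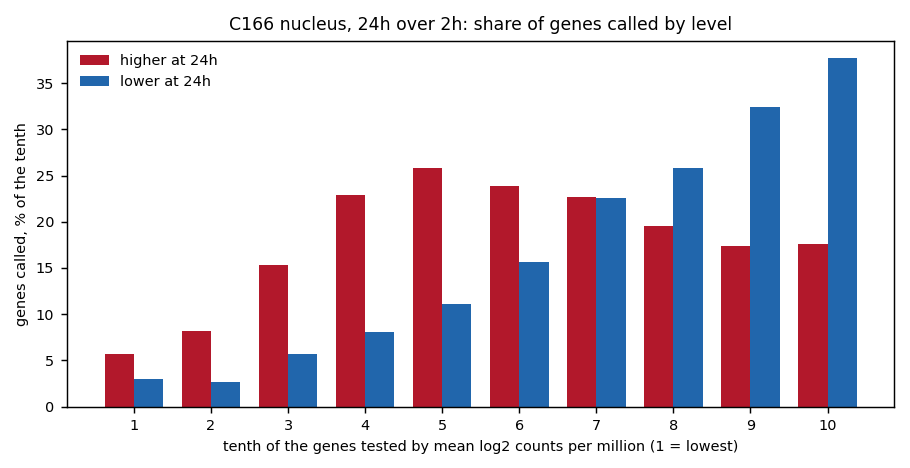
Share of genes called higher (red bars, left of each pair) or lower (blue bars) at 24h than at 2h in the C166 nucleus, in % of each decile of the 15735 genes tested, ordered by mean log2 CPM from the lowest (1) to the highest (10). The share called lower runs from 2.99% in the lowest decile to 37.7% in the highest, while the share called higher peaks at 25.8% in the fifth decile.

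The changes were grouped by lists of genes of known function. Of the 22 lists plotted, sterol genes, HIF targets and glycolytic genes had the highest medians, at 1.35, 1.22 and 1.0997 on the log2 scale, and ribosome biogenesis genes had the lowest, at −0.95, against 0.01 for all genes tested. No test of a list as a whole was made, so each list is given by its counts and its median. The counts stand against 17.9% higher and 16.5% lower over all genes tested.

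**Figure D2:**
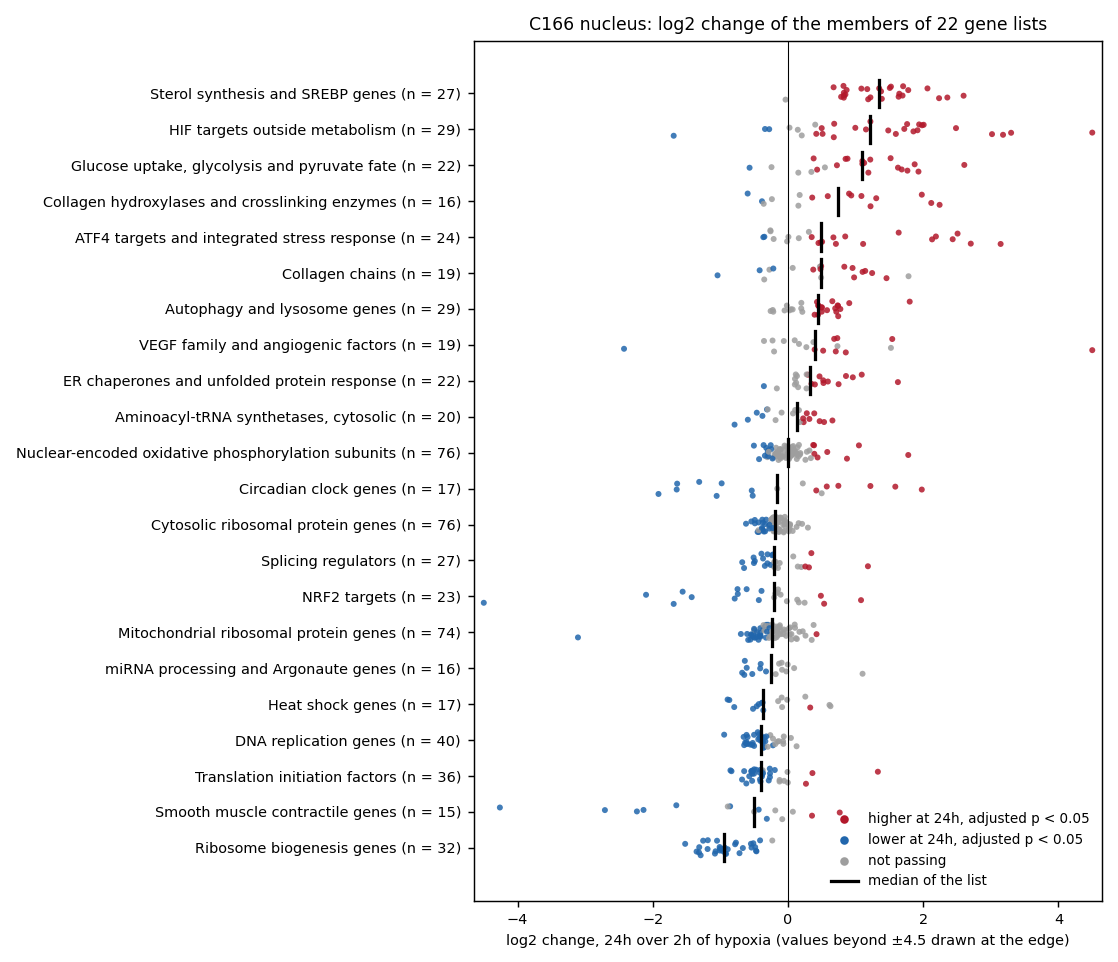
Log2 change at 24h over 2h of hypoxia (x axis) of every tested member of 22 gene lists in the C166 nucleus, ordered by the list's median (black bar), with red for members called higher, blue for members called lower and grey for members not passing. 26 of 27 sterol genes lie to the right in red with a median of 1.35, and 31 of 32 ribosome biogenesis genes lie to the left in blue with a median of −0.95.

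Some oxygen sensors and HIF subunits changed. Of 9 genes of the HIF subunits and sensors, 2 were higher at 24h, 1 was lower and 6 did not pass (median 0.19). These counts lie near the shares over all genes tested, 17.9% higher and 16.5% lower. Egln1, the main prolyl hydroxylase that marks HIF for degradation, had 229.8, 210.0 and 216 CPM at 24h, against 91.5, 95.5 and 80.996 CPM at 2h. No library of one time reached the other, and the log2 change was 1.29 ± 0.10 (SE, adjusted p = 3.79e-10). Hif1a, the oxygen-regulated alpha subunit, had 904, 1046 and 809 CPM at 24h and 607, 508 and 585 CPM at 2h, again without overlap (0.70 ± 0.09, adjusted p = 1.14e-06). Hif1an, the asparaginyl hydroxylase that blocks HIF's coactivator binding, fell to 29.8, 35.8 and 31.8 CPM at 24h, against 45.9, 49.96 and 47.1 CPM at 2h (−0.55 ± 0.10, adjusted p = 0.000137). Egln3, another prolyl hydroxylase, passed in the early comparison and not in the late one. It had 1.53 ± 0.525 CPM in normoxia, 9.08 ± 1.83 CPM at 2h and 7.30 ± 2.43 CPM at 24h (SD, n = 3 each), a late log2 change of −0.32 ± 0.23 (adjusted p = 0.299) beside an early one of 2.57 ± 0.28 (adjusted p = 5.00e-07). Without replicate 1 of 24h its late change was −0.63 with an adjusted p of 0.0331.

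HIF targets outside metabolism were mostly higher at 24h than at 2h. Of 29 tested, 22 were higher, 3 were lower and 4 did not pass, with a median log2 change of 1.22. Beside the late comparison, 21 had been called higher and 1 lower at 2h than in normoxia, with a median of 1.24. Vegfa (ENSMUSG00000023951, chr17:46016993-46032369 on build GRCm38, as for the other genes), the vascular growth factor at the centre of the study, had 173, 139 and 149.6 CPM at 24h, against 94.1, 101 and 91.7 CPM at 2h. Every 24h library lay above every 2h library, and the change was 1.61-fold (log2 0.68 ± 0.10, adjusted p = 5.12e-06) beside an early log2 change of 1.12 ± 0.10. Ndrg1 (chr15:66929318-66969640), a stress-response gene linked to differentiation, had 502, 413 and 496 CPM at 24h and 47.6, 66.8 and 40.8 CPM at 2h, a 9.06-fold change (log2 3.18 ± 0.15, adjusted p = 2.86e-14). Car12 (chr9:66713686-66766845), a membrane carbonic anhydrase that helps export acid, had 65.4, 66.6 and 60.7 CPM at 24h and 6.06, 8.30 and 4.98 CPM at 2h (log2 3.30 ± 0.16, adjusted p = 4.76e-14). Its early change of 0.51 ± 0.18 did not pass (adjusted p = 0.2), so the change that passed was the late one. Tmem45a (chr16:56805161-56886166), a transmembrane protein gene, had 11.8, 15.3 and 9.45 CPM at 24h and 0.207, 0.165 and 0.274 CPM at 2h, or 801 counts against 13 over the 3 libraries. It had the largest log2 change of the genes named here by rank, 5.81 ± 0.32 (adjusted p = 3.21e-13).

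The HIF targets differed in how much of their change was already made by 2h. Bnip3, a mitophagy receptor of the outer mitochondrial membrane, averaged 9.64 ± 1.44 CPM in normoxia, 124 ± 3.35 CPM at 2h and 374 ± 40.6 CPM at 24h (SD, n = 3 each), an early log2 change of 3.68 ± 0.13 and a late one of 1.59 ± 0.11 (adjusted p = 3.21e-11). Ccng2, an atypical cyclin that restrains the cell cycle, had an early change of 2.68 ± 0.15 and a late one of 1.86 ± 0.12, with 109, 105 and 97.9 CPM at 24h and 26.3, 35.7 and 24.1 CPM at 2h. Both genes kept climbing between the times. Ankrd37, an ankyrin-repeat protein gene, went up by 4.003 ± 0.29 early and by 0.68 ± 0.21 late (adjusted p = 0.014), and the late call was lost without replicate 2 of 24h (0.59, adjusted p = 0.0566) or replicate 2 of 2h (0.62, adjusted p = 0.0559). Kdm3a, a histone H3 lysine 9 demethylase, did not pass in the late comparison. It had 338, 348 and 286 CPM at 24h and 332, 297 and 329 CPM at 2h, with both groups overlapping (0.02 ± 0.09, adjusted p = 0.876), against a mean of 123.05 ± 4.98 CPM in normoxia. Siah2, Angptl4 and Nrn1 also did not pass, at 0.14, 0.40 and 0.20. Hmox1 and Rsbn1 were among the genes called lower, and without replicate 2 of 24h 1 member was called lower. Hmox1, which encodes heme oxygenase 1 and is shared with the NRF2 list, had 170.4, 154 and 169.6 CPM at 24h, against 552, 547 and 497 CPM at 2h (−1.69 ± 0.09, adjusted p = 1.94e-13), having been higher at 2h than in normoxia by 0.88 ± 0.09. Rsbn1 changed by −0.34 ± 0.13 (adjusted p = 0.0429), and its call was lost without replicate 2 or 3 of 24h or replicate 1 of 2h (adjusted p = 0.104, 0.134 and 0.224).

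**Figure D3:**
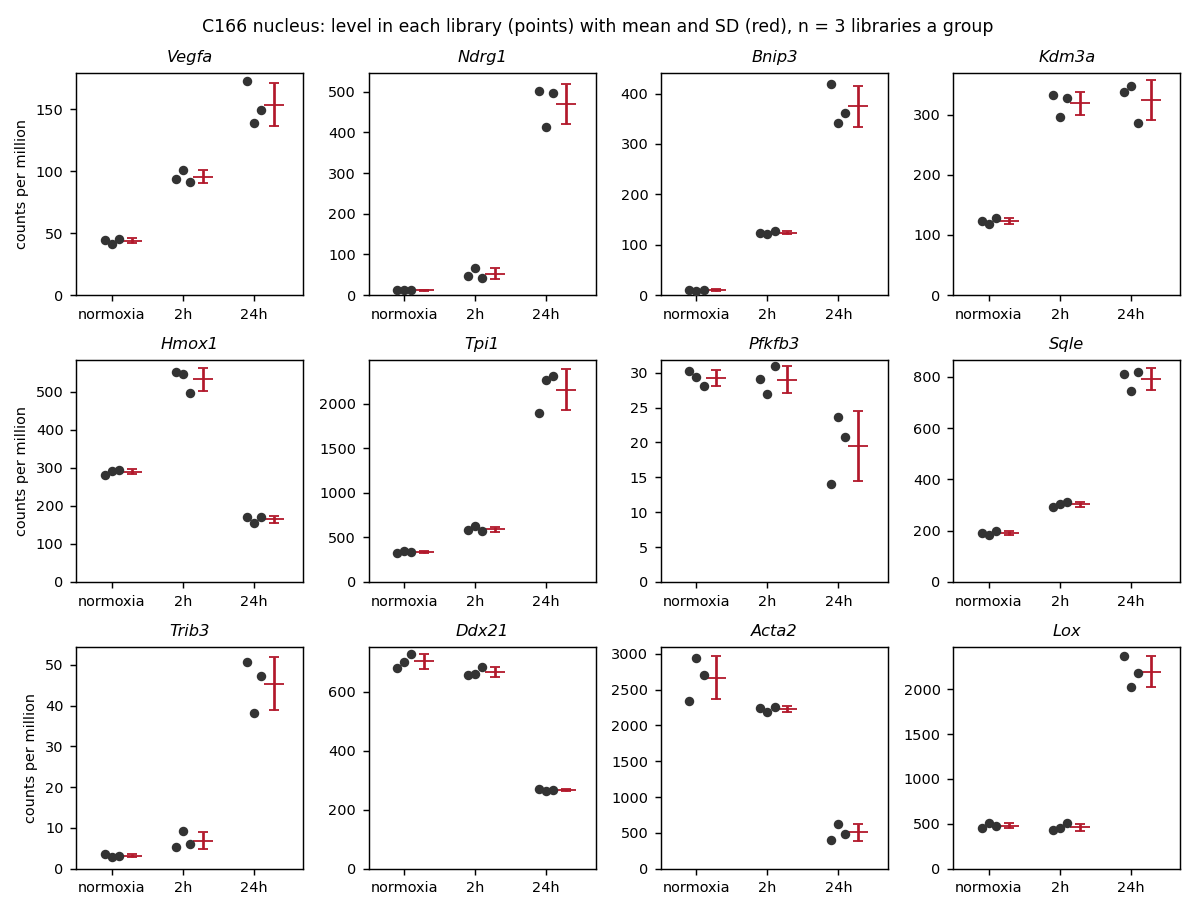
Level in CPM (y axis, from 0) of 12 genes in each of the 3 C166 nuclear libraries of normoxia, 2h and 24h (black points), with the group mean and SD in red. Vegfa, Ndrg1 and Bnip3 climb at both steps, Kdm3a averages 319 ± 19.5 CPM at 2h and 324 ± 33.1 CPM at 24h, Hmox1 is highest at 2h, and Lox, Trib3, Ddx21 and Acta2 move mainly between 2h and 24h.

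Genes of glucose use were higher at 24h along nearly the whole pathway. Of 22 tested, 17 were higher, 1 was lower and 4 did not pass, with a median log2 change of 1.0997, beside 14 called higher and 0 lower at 2h, with a median of 0.51. Slc2a1, the GLUT1 glucose transporter, had 468, 637 and 557 CPM at 24h and 175, 195 and 168 CPM at 2h (log2 1.63 ± 0.09, adjusted p = 6.68e-13). Hk1, a hexokinase that traps glucose in the cell, had 508, 543 and 554 CPM at 24h and 165.8, 184 and 150.4 CPM at 2h (1.68 ± 0.09, adjusted p = 1.82e-13), while its early change of 0.32 ± 0.09 did not pass. Hk2, the inducible hexokinase, showed the other order, with a late change of 0.15 ± 0.07 that did not pass (adjusted p = 0.115) and an early one of 1.22 ± 0.08. Pfkp, the platelet-type phosphofructokinase, had 861, 809.6 and 834 CPM at 24h and 252, 262 and 223 CPM at 2h (1.77 ± 0.08, adjusted p = 9.62e-15). Tpi1, the triosephosphate isomerase, had 1897, 2271 and 2311 CPM at 24h and 578, 622 and 568 CPM at 2h (1.87 ± 0.08, adjusted p = 9.62e-15). No 24h library overlapped a 2h library for any of these enzymes. Pgk1, Ldha and Slc16a3, which encode phosphoglycerate kinase, lactate dehydrogenase A and the lactate exporter MCT4, changed by 1.22 ± 0.08, 1.19 ± 0.08 and 2.61 ± 0.28. Pdk1, the kinase that shuts pyruvate dehydrogenase and so diverts pyruvate from mitochondria, changed by 1.93 ± 0.11 late and 2.45 ± 0.12 early. Pfkfb3, which makes the allosteric activator of phosphofructokinase, was the only member called lower, with 13.97, 23.7 and 20.8 CPM at 24h against 29.1, 27.0 and 30.9 CPM at 2h (−0.57 ± 0.14, adjusted p = 0.00225). Slc2a3, Pfkfb4 and Aldoc did not pass, at −0.24, 0.35 and 0.55, and Pfkfb4 passed without replicate 1 of 24h (0.51, adjusted p = 0.0157).

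Most oxidative phosphorylation subunits did not pass, which also holds for most genes tested. Of 76 tested, 8 were higher, 11 were lower and 57 did not pass, with a median of −0.01. Both counts lie under the shares over all genes tested, 17.9% higher and 16.5% lower. The count of lower genes fell to 3 without replicate 1 of 24h, 5 without replicate 2 of 2h and 4 without replicate 3 of 2h, and the count of higher genes was 5 without any of replicates 2 and 3 of 24h and 1 and 2 of 2h. Ndufv3, an accessory subunit of complex I, had 58.0, 65.1 and 63.2 CPM at 24h and 17.3, 18.6 and 18.3 CPM at 2h (1.78 ± 0.11, adjusted p = 3.36e-12). Ndufa1, another accessory subunit, changed by 0.87 ± 0.14 (adjusted p = 1.69e-05), and Atp5c1, the gamma subunit of ATP synthase, by −0.43 ± 0.09 (adjusted p = 0.00039). Only 2 of the 10 mitochondrially encoded transcripts in the table had enough reads to be tested. Neither mt-Nd6 (0.76 ± 0.36, adjusted p = 0.101) nor mt-Co1 (1.27 ± 0.73, adjusted p = 0.188) passed, although mt-Nd6 did without replicate 3 of 2h (1.16, adjusted p = 0.0272).

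Genes of cholesterol synthesis and its control rose together. Of 27 tested, 26 were higher at 24h, 0 were lower and 1 did not pass, with a median of 1.35, beside 13 called higher and 0 lower at 2h, with a median of 0.51. The count of 26 was the same without any single library and with upper-quartile scaling and DESeq2. Sqle, squalene epoxidase, an oxygen-consuming step of the pathway, had 809, 743 and 820.1 CPM at 24h and 292, 302 and 312 CPM at 2h (log2 1.39 ± 0.10, adjusted p = 2.67e-11). Msmo1, an oxygen-dependent C4 sterol demethylase, had 593, 519.6 and 537 CPM at 24h and 168, 167 and 196 CPM at 2h (1.64 ± 0.12, adjusted p = 3.79e-11). The groups did not overlap for either enzyme. Early steps moved too. Hmgcs1, the cytosolic HMG-CoA synthase, changed by 1.09 ± 0.15, Mvd, mevalonate diphosphate decarboxylase, by 2.23 ± 0.18, Idi1, isopentenyl diphosphate isomerase, by 1.38 ± 0.18, and Fdps, farnesyl diphosphate synthase, by 2.06 ± 0.18. Of the regulators, the SREBP genes Srebf1 and Srebf2 changed by 0.67 and 0.82, and Insig1, which holds SREBP in the ER, by 1.69 ± 0.12, with 227, 174 and 228 CPM at 24h and 63.3, 69.1 and 62.2 CPM at 2h. Scap, the escort that carries SREBP to the Golgi, was the member that did not pass, with 67.2, 86.9 and 85.3 CPM at 24h and 77.8, 91.7 and 76.0 CPM at 2h (−0.04 ± 0.11, adjusted p = 0.841). Its sign turned with upper-quartile scaling (0.0019) and without replicate 1 of 24h (0.064) or replicate 2 of 2h (0.035).

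Stress genes driven by ATF4, the transcription factor of the integrated stress response, were higher in part. Of 24 tested, 15 were higher, 2 were lower and 7 did not pass (median 0.49), beside 3 higher and 0 lower at 2h (median 0.12). The lower genes numbered 4 without replicate 1 of 2h and 1 without replicate 1 of 24h or replicate 2 of 2h. Trib3, a pseudokinase that restrains AKT, had 50.8, 38.1 and 47.3 CPM at 24h and 5.44, 9.21 and 6.07 CPM at 2h (2.70 ± 0.19, adjusted p = 4.46e-11). Gpt2, mitochondrial alanine aminotransferase, had 68.9, 68.1 and 68.6 CPM at 24h and 12.3, 14.04 and 11.6 CPM at 2h (2.44 ± 0.14, adjusted p = 4.92e-13). Vldlr, a lipoprotein receptor that is also a HIF target, had 598, 514 and 516 CPM at 24h and 95.2, 93.7 and 97.2 CPM at 2h (2.51 ± 0.15, adjusted p = 2.45e-12). No 24h library of these genes overlapped a 2h library. Atf4 itself changed by 0.48 and Asns, asparagine synthetase, by 0.71. Enzymes of serine and one-carbon metabolism split. Aldh1l2, a mitochondrial enzyme of one-carbon metabolism outside the list, had 399, 399 and 349 CPM at 24h and 63.3, 69.4 and 61.6 CPM at 2h (2.56 ± 0.09, adjusted p = 4.96e-16). Psat1 and Mthfd2 changed by 0.45 and 0.50. Shmt2, the mitochondrial serine hydroxymethyltransferase, fell by 0.37 on the log2 scale (adjusted p = 0.000844), as did Phgdh, the first enzyme of serine synthesis, by 0.35 (adjusted p = 0.0167), whose call was lost without replicate 1 of 24h (−0.20, adjusted p = 0.121) or replicate 2 of 2h (−0.29, adjusted p = 0.081).

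Aminoacyl-tRNA synthetases, which charge tRNAs with amino acids, also split by gene, with 8 of 20 higher, 5 lower and 7 not passing (median 0.13). Without replicate 1 of 2h the higher genes numbered 5. Sars (serine) had 329, 329 and 364 CPM at 24h and 215, 222 and 212 CPM at 2h (0.66 ± 0.08, adjusted p = 3.34e-07), and Cars (cysteine) changed by 0.53 ± 0.08 (adjusted p = 1.40e-05). Kars (lysine) went the other way, with 167, 189.6 and 198 CPM at 24h and 317, 331 and 311 CPM at 2h (−0.79 ± 0.08, adjusted p = 8.41e-09). Farsb, Farsa, Hars and Rars, for phenylalanine, histidine and arginine, were called lower too, at −0.59, −0.46, −0.38 and −0.31.

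ER chaperones and genes of the unfolded protein response were higher in the nucleus at 24h. Of 22 tested, 12 were higher, 1 was lower and 9 did not pass (median 0.32), and none had been called at 2h. Hspa5, the ER chaperone BiP, had 1157, 1537 and 1252 CPM at 24h and 672, 613 and 747 CPM at 2h (0.96 ± 0.11, adjusted p = 8.68e-08). Xbp1, a transcription factor of the unfolded protein response whose active form arises by splicing in the cytosol, had 45.5, 53.2 and 43.2 CPM at 24h and 17.2, 15.7 and 13.03 CPM at 2h (1.63 ± 0.16, adjusted p = 1.69e-08). Herpud1, which serves ER-associated degradation, had 103, 115 and 114 CPM at 24h and 51.8, 54.3 and 49.9 CPM at 2h (1.09 ± 0.10, adjusted p = 7.36e-09). Counts per gene do not tell the spliced form of Xbp1 from the other. Hyou1, an ER chaperone also known as GRP170, was the member called lower, with 96.8, 126 and 117 CPM at 24h and 141, 146 and 149 CPM at 2h (−0.36 ± 0.09, adjusted p = 0.00417), and 2 members were lower without replicate 1 of 24h. Ero1l, the ER oxidase, changed by 1.76 ± 0.12 (adjusted p = 1.26e-11).

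Ribosome biogenesis genes fell almost without exception. Of 32 tested, 31 were lower at 24h, 0 were higher and 1 did not pass, with a median of −0.95, and none had been called at 2h, when the median was −0.02. Leaving out 1 library at a time gave 30 to 32 lower genes. Ddx21, a nucleolar helicase that senses ribosomal RNA transcription, had 272, 264 and 266 CPM at 24h, against 656, 658 and 684 CPM at 2h (−1.32 ± 0.08, adjusted p = 1.39e-12). Rrp12, an export factor of ribosomal subunits, had 47.1, 53.4 and 63.1 CPM at 24h and 153, 164 and 153 CPM at 2h (−1.52 ± 0.10, adjusted p = 7.31e-12). Nhp2, a core protein of H/ACA snoRNPs, had 42.7, 46.4 and 45.2 CPM at 24h and 105, 109 and 119.8 CPM at 2h (−1.31 ± 0.09, adjusted p = 9.63e-12). Every 24h library of each gene lay below every 2h library. Ncl (nucleolin), Npm1 (nucleophosmin) and Fbl (fibrillarin), abundant nucleolar proteins, changed by −1.26, −0.93 and −0.94, and Polr1a and Polr1b, the large subunits of RNA polymerase I, by −0.67 and −1.19. Polr1c, a subunit shared by RNA polymerases I and III, was the one that did not pass (−0.23 ± 0.09, adjusted p = 0.0589), but it passed without replicate 3 of 24h (−0.31, adjusted p = 0.0277). Few guide RNAs of ribosomal RNA modification were called. Of 75 snoRNA and scaRNA genes tested 0 were higher, 9 were lower and 66 did not pass (median −0.42). Both counts lie under the shares over all genes tested, 17.9% higher and 16.5% lower. Without 1 library the lower genes numbered 6 to 13, with 2 higher without replicate 1 of 24h and 1 without replicate 3 of 2h. The genes tested summed to 607.5 to 1423 CPM at 24h and 807.5 to 1211 CPM at 2h. The lower genes included Snora26, with 3.96, 7.48 and 7.12 CPM at 24h and 9.38, 12.3 and 14.2 CPM at 2h (−0.94 ± 0.21, adjusted p = 0.00109). Many snoRNA genes lie in introns of host genes, so their counts may hold reads of the hosts. Of 13 other short RNAs 2 were higher and 0 lower (median 0.10), namely Rn7sk (0.37) and Rn7s1 (5.05). Rn7s1 lost its call without replicate 2 of 24h (1.33), and Rn7sk without replicate 2 of 24h or replicate 1 or 2 of 2h. Without replicate 2 of 24h 1 short RNA was lower.

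Translation factors followed with smaller changes. Of 36 initiation factor genes 27 were lower, 3 were higher and 6 did not pass (median −0.40). Eif2s3x, the X-linked gamma subunit of eIF2, had 163, 163 and 144 CPM at 24h and 294, 257 and 288 CPM at 2h (−0.84 ± 0.09, adjusted p = 6.31e-08), and Eif2b3, a subunit of the exchange factor eIF2B, changed by −0.85 ± 0.12 (adjusted p = 3.60e-06). Eif4ebp1, which encodes the cap-binding inhibitor 4E-BP1, moved against them, with 115, 96.1 and 111 CPM at 24h and 40.2, 49.6 and 38.4 CPM at 2h (1.33 ± 0.13, adjusted p = 1.12e-08). The other higher genes were Eif3c (0.27 ± 0.08, adjusted p = 0.0115) and Eif1b (0.36 ± 0.14, adjusted p = 0.0439). The call of Eif3c was lost without replicate 3 of 24h (0.21, adjusted p = 0.0722) or replicate 1 of 2h (0.22, adjusted p = 0.0753), and that of Eif1b without any 1 of the 6 libraries (adjusted p of 0.0555 to 0.218). Of 76 cytosolic ribosomal protein genes 22 were lower, 0 higher and 54 not passing (median −0.19). Over all genes tested 16.5% were lower, and in the decile with the highest mean level 37.7% were. The part of level in this count was not tested. The lower genes numbered from 15 without replicate 3 of 2h to 31 without replicate 1 of 2h, with 1 higher without replicate 1 of 24h. Rpl4, Rpl14 and Rpl6 changed by −0.49 ± 0.07, −0.54 ± 0.09 and −0.43 ± 0.07. Of 74 mitochondrial ribosomal protein genes 27 were lower, 1 was higher and 46 did not pass (median −0.24). Mrpl37 had 16.3, 17.5 and 16.98 CPM at 24h and 29.2, 27.5 and 25.7 CPM at 2h (−0.70 ± 0.12, adjusted p = 8.07e-05), and Mrpl54 was the higher one, at 0.42 ± 0.10 (adjusted p = 0.00254), while 3 were higher without replicate 1 of 24h.

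DNA replication genes were lower and mitosis genes mostly did not pass. Of 40 replication genes 29 were lower, 0 were higher and 11 did not pass (median −0.39), beside 1 higher and 0 lower at 2h (median 0.13). Mcm5, a subunit of the replicative helicase, had 347, 389.5 and 427 CPM at 24h and 559, 627 and 596 CPM at 2h (−0.61 ± 0.08, adjusted p = 1.43e-06). Rrm2, the small subunit of ribonucleotide reductase, had 156, 165 and 177 CPM at 24h and 249, 253 and 283 CPM at 2h (−0.66 ± 0.09, adjusted p = 4.97e-06), and Cdt1, an origin licensing factor, changed by −0.65 ± 0.10 (adjusted p = 9.43e-06). Pcna, the sliding clamp, did not pass (−0.06, adjusted p = 0.652). Of 38 mitosis genes 9 were lower, 1 was higher and 28 did not pass (median −0.13), with Cdc20, the activator of the anaphase-promoting complex, at −0.47 ± 0.10, Kif20a, a cytokinesis kinesin, at −0.40 ± 0.08, and Kif23, another cytokinesis kinesin, at −0.45 ± 0.10. Ndc80, a kinetochore protein, was the higher gene (0.47 ± 0.11, adjusted p = 0.00219), with 2 higher without replicate 3 of 2h, and the proliferation marker Mki67 did not pass (0.02, adjusted p = 0.914). Of 19 cyclins and partners 7 were lower, 2 were higher and 10 did not pass (median −0.14). E2f3, an S-phase transcription factor, had 33.9, 32.1 and 33.1 CPM at 24h and 59.7, 61.3 and 60.1 CPM at 2h (−0.87 ± 0.09, adjusted p = 1.35e-08). Cdk6, a G1 kinase, changed by −0.84 ± 0.10 and Cdc25a, a phosphatase that activates CDK2, by −0.77 ± 0.10. The higher genes were the pocket proteins Rbl2 and Rb1, at 0.81 and 0.47. The call of Rb1 was lost without replicate 1 or 3 of 24h (adjusted p = 0.0881 and 0.125) or replicate 1 or 2 of 2h (0.0848 and 0.143). Cdkn1b, the CDK inhibitor p27, had 210.3, 222 and 192 CPM at 24h and 130.1, 135 and 133 CPM at 2h (0.65 ± 0.08, adjusted p = 6.21e-07), and Cdkn1a, the inhibitor p21, did not pass (0.21, adjusted p = 0.286). The 18 tested p53 targets and CDK inhibitors counted 5 higher and 8 lower (median −0.10). Beside Cdkn1b the higher genes were Bbc3, Gadd45a, Trp53inp1 and Gadd45g, at 1.53, 1.14, 0.93 and 0.48. The call of Bbc3 was lost without replicate 3 of 24h (0.93, adjusted p = 0.12) and that of Gadd45g without replicate 1 or 3 of 2h (adjusted p = 0.0754 and 0.0529). Replication-dependent histones, which lack poly(A) tails, had 3 of 59 lower and 0 higher (median −0.04), with 2 higher without replicate 1 of 24h and 1 without replicate 2 of 2h. The lower genes were Hist4h4 (−0.67 ± 0.16, adjusted p = 0.00187, groups overlapping), Hist1h3g (−0.51) and Hist1h2bj (−0.45). The call of Hist1h3g was lost without replicate 1 of 24h (adjusted p = 0.0574), and that of Hist1h2bj without replicate 1 of 24h, replicate 2 of 2h or replicate 3 of 2h (adjusted p = 0.154, 0.212 and 0.056).

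Antioxidant genes under NRF2, which answers oxidants and electrophiles, were more often lower. Of 23 tested 11 were lower, 3 were higher and 9 did not pass (median −0.20). Txnrd1, thioredoxin reductase, had 249, 155 and 207 CPM at 24h and 579.5, 591 and 628 CPM at 2h (−1.56 ± 0.11, adjusted p = 4.69e-11). Gsta4, a glutathione transferase for lipid peroxidation products, had 3.597, 2.33 and 3.38 CPM at 24h and 12.5, 13.5 and 13.6 CPM at 2h (−2.10 ± 0.17, adjusted p = 2.96e-10). Gsta1 had 0 counts in the 24h libraries and was at least 57.4-fold lower at 24h with a floor of 3 counts over the group, and the list's median was the same with that bound. Nqo1, a quinone reductase, and Gclc, the catalytic subunit of glutathione synthesis, changed by −1.42 and −0.75. The higher genes were Gstm1, another glutathione transferase (1.08 ± 0.14), Cat, catalase (0.53 ± 0.10), and Keap1, the adaptor that has NRF2 degraded (0.49 ± 0.11), while Nfe2l2, which encodes NRF2, did not pass (−0.02, adjusted p = 0.942). Metallothioneins, metal-binding proteins induced by zinc and by hypoxia, were higher. Mt2 had 37.7, 29.4 and 32.04 CPM at 24h and 5.44, 7.72 and 7.22 CPM at 2h (2.28 ± 0.20, adjusted p = 1.59e-09), and Mt1 changed by 1.504 ± 0.12 (adjusted p = 2.08e-10). The genes are similar in sequence and reads may have been split between them. Of 17 heat shock genes 9 were lower, 1 was higher and 7 did not pass (median −0.37). Hspd1 and Hspe1, the mitochondrial chaperonins HSP60 and HSP10 that share a promoter, had 709.9, 785 and 764 and 135, 174 and 149 CPM at 24h, against 1418, 1405 and 1373 and 265, 257 and 313 CPM at 2h. They changed by −0.89 ± 0.07 and −0.87 ± 0.11 (adjusted p = 3.54e-10 and 1.47e-06). The higher gene was Hspa4l, whose call (0.33 ± 0.12) was lost without replicate 2 of 24h (adjusted p = 0.405), replicate 2 of 2h (0.183) or replicate 3 of 2h (0.138). Without replicate 1 of 24h 3 heat shock genes were higher, and without replicate 1 of 2h 2 were.

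Contractile genes of smooth muscle included several of the largest losses. Of 15 tested 8 were lower, 2 were higher and 5 did not pass (median −0.50). Actg2, enteric smooth muscle actin, had 1.46, 3.08 and 3.56 CPM at 24h, against 50.6, 56.0 and 51.0 CPM at 2h, a 19.2-fold decrease (−4.26 ± 0.30, adjusted p = 4.46e-11). Tagln, the actin-binding protein SM22, had 31.1, 56.9 and 37.7 CPM at 24h and 263, 264 and 297 CPM at 2h (−2.71 ± 0.15, adjusted p = 3.88e-13). Myl9, the regulatory light chain of myosin, had 57.7, 83.9 and 71.7 CPM at 24h and 324, 354 and 327 CPM at 2h (−2.24 ± 0.11, adjusted p = 5.72e-14). Acta2, smooth muscle actin, had 401, 629.6 and 491 CPM at 24h and 2247, 2188 and 2257 CPM at 2h (−2.14 ± 0.11, adjusted p = 1.16e-13), and Cnn1, calponin, changed by −1.65 ± 0.19. Their groups did not overlap, and their early changes, from −0.41 for Actg2 to −0.26 for Acta2, did not pass. The higher genes were Mylk, a myosin kinase (0.76 ± 0.27, adjusted p = 0.0306), and Smtn, smoothelin (0.35 ± 0.11, adjusted p = 0.0135). Both calls were lost without replicate 3 of 24h (adjusted p = 0.0801 and 0.119), replicate 1 of 2h (0.0519 and 0.0888) or replicate 3 of 2h (0.101 and 0.056), and that of Mylk also without replicate 2 of 2h (0.0862). Of 13 tested markers of smooth muscle and mesenchyme, which include some of the same genes, 5 were lower and 2 higher. Acta2, Tagln and Cnn1 stand in both lists and are among the lower genes. The marker counts therefore cannot tell whether the contractile genes moved with the other markers. Of the markers outside the contractile list, Col1a2 and Col3a1 were higher and Dcn was lower. The part of the marker list in the contractile result was not tested.

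Collagen genes and their enzymes were more often higher. Of 19 collagen chains 10 were higher, 3 were lower and 6 did not pass (median 0.49), and of 16 collagen hydroxylases and crosslinking enzymes 10 were higher, 2 were lower and 4 did not pass (median 0.75). Lox, lysyl oxidase, which crosslinks collagen and elastin, had 2373, 2029 and 2183 CPM at 24h and 429.8, 456 and 506 CPM at 2h (2.24 ± 0.12, adjusted p = 1.42e-13). Loxl2, a relative of Lox, had 153, 163 and 156 CPM at 24h and 36.3, 36.7 and 35.5 CPM at 2h (2.12 ± 0.10, adjusted p = 2.84e-14). Neither passed at 2h, at −0.05 and 0.18. P4ha2, a collagen prolyl hydroxylase and HIF target, changed at both steps, with 412, 561 and 496 CPM at 24h and 128, 128 and 116 CPM at 2h (1.98 ± 0.10, adjusted p = 1.42e-13) beside an early change of 1.25 ± 0.10. Loxl1 and Loxl3 were the lower crosslinkers, at −0.60 ± 0.18 and −0.39 ± 0.14, and both calls were lost without replicate 1 of 24h (adjusted p = 0.0566 and 0.17) or replicate 2 of 2h (0.117 and 0.141). Col12a1, a fibril-associated collagen, had 1209, 1196 and 1151 CPM at 24h and 599, 578 and 658 CPM at 2h (0.95 ± 0.09, adjusted p = 5.23e-09), Col5a1, a chain of collagen V, changed by 1.103 ± 0.11, and Col16a1 by 1.14 ± 0.12. Col18a1, the source of endostatin, was lower, with 64.0, 75.4 and 87.5 CPM at 24h and 145, 180.1 and 142 CPM at 2h (−1.04 ± 0.12, adjusted p = 2.15e-07). Col4a2 and Col5a2 were also called lower (−0.42 ± 0.14 and −0.22 ± 0.09), and lost their calls without replicate 1 of 24h (adjusted p = 0.132 and 0.279) or replicate 2 of 2h (0.0606 and 0.1), that of Col5a2 also without replicate 3 of 2h (0.0903).

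Vascular signals beyond Vegfa moved in part. Of 19 tested VEGF family members and angiogenic factors 8 were higher, 1 was lower and 10 did not pass (median 0.39). Without replicate 3 of 2h the higher genes numbered 5, and without replicate 2 of 24h the lower ones numbered 2. Apln, the peptide apelin, had 62.5, 58.2 and 69.4 CPM at 24h and 34.8, 39.2 and 31.0 CPM at 2h (0.85 ± 0.12, adjusted p = 2.62e-06). Nrp1, a VEGF coreceptor, had 597, 678 and 628 CPM at 24h and 428, 419.8 and 479.7 CPM at 2h (0.52 ± 0.08, adjusted p = 2.67e-05). Flt1, the VEGF receptor 1 and the only endothelial marker called, had 5.58, 11.5 and 12.05 CPM at 24h and 3.26, 3.30 and 3.45 CPM at 2h (1.54 ± 0.36, adjusted p = 0.0019). Thbs1, an inhibitor of angiogenesis, changed by 0.71 ± 0.12, after an early change in the other direction of −0.82 ± 0.12. Pgf, placental growth factor, changed by 0.73 ± 0.23 (adjusted p = 0.015) and lost its call without replicate 3 of 24h (0.64, adjusted p = 0.0689) or replicate 1 or 3 of 2h (adjusted p = 0.0622 and 0.0614). Fgf2, a fibroblast growth factor, was the lower gene, with 0.678, 0.956 and 0 CPM at 24h and 3.63, 2.15 and 3.17 CPM at 2h (−2.43 ± 0.53, adjusted p = 0.000755).

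Map2k1, which encodes the kinase MEK1, was measured because the study follows it beside Vegfa. It had 153, 143 and 162 CPM at 24h, against 92.4, 92.6 and 85.1 CPM at 2h (0.76 ± 0.09, adjusted p = 1.34e-07), beside an early change of 0.65 ± 0.09, so its libraries climbed at both steps. Of 18 genes of the Ras-MEK-ERK cascade 3 were higher and 5 were lower (median −0.09). Over all genes tested 17.9% were higher and 16.5% lower. Mapk3, the kinase ERK1, had 40.0, 39.3 and 35.0 CPM at 24h and 23.99, 23.9 and 20.7 CPM at 2h (0.74 ± 0.11, adjusted p = 7.06e-06). Map2k2, which encodes MEK2, fell by 0.60 on the log2 scale, and Rras was the other higher gene (0.76, adjusted p = 0.048). The call of Rras was lost without any 1 library but replicate 2 of 24h (adjusted p = 0.0814 to 0.195) and with the replicate number as a block (0.0651). Of 17 feedback genes of the pathway 5 were higher and 5 lower (median 0.06). Dusp10 and Dusp8, phosphatases of stress kinases, changed by 1.40 ± 0.16 and 1.99 ± 0.23, with Dusp1 and Dusp16 at 1.34 and 0.97 and Spry1 at 1.02. The ERK-induced factors Etv5 and Etv4, the ERK phosphatase Dusp6 and the inhibitors Spry4 and Spred1 were lower, at −1.30, −0.77, −0.55, −1.43 and −0.41. Of 23 immediate early genes 8 were higher and 3 lower (median 0.11). Klf4, a vascular transcription factor, had 88.9, 76.5 and 97.8 CPM at 24h and 37.9, 38.7 and 33.4 CPM at 2h (1.26 ± 0.10, adjusted p = 3.43e-10), Jund changed by 1.54 ± 0.19, and Egr1, a classic ERK target, had 3.49, 3.99 and 4.20 CPM at 24h and 12.4, 15.1 and 14.7 CPM at 2h (−1.85 ± 0.20, adjusted p = 7.45e-08). Fosl1 and Ier5 were the other lower genes, at −0.98 and −0.37. Of 19 YAP and TEAD genes 7 were lower and 2 higher (median −0.02), with the lower genes Tead2 at −0.73 ± 0.12 and Ptpn14 at −0.63 ± 0.09, and the higher gene Wwtr1, which encodes the YAP paralog TAZ, at 0.56 ± 0.10. Ctgf, a matricellular YAP target, was the other higher gene (0.56). Without replicate 1 of 2h the lower YAP and TEAD genes numbered 4.

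Genes of other signalling pathways moved in part. Over all genes tested 17.9% were higher and 16.5% lower. The counts of TGF-beta and BMP genes below lie near these shares, and those of NF-kappaB genes and chemokines lie under them. Of 19 Wnt and Notch genes 8 were higher and 0 lower (median 0.22), led by Dkk1, a secreted Wnt inhibitor, with 18.8, 34.7 and 24.7 CPM at 24h and 1.45, 2.56 and 2.24 CPM at 2h (3.63 ± 0.22, adjusted p = 3.08e-12). The Wnt receptors Fzd7 and Fzd1 changed by 0.79 ± 0.15 and 0.52 ± 0.13. The higher genes numbered 5 without replicate 3 of 2h, and 1 gene was lower without replicate 2 of 24h. Of 24 TGF-beta and BMP genes 5 were higher and 5 lower (median −0.09), with Bmp4, a ligand, at 0.56 ± 0.09, Smad9, a BMP effector, at −1.45 ± 0.15, and Ltbp1, which binds latent TGF-beta, at −0.49 ± 0.07. The other higher genes were Tgfb2, Tgfb3, Tgfbr2 and Tgfbr3, at 0.76, 0.29, 0.40 and 0.38, and the other lower ones Ltbp2, Smad2 and Smad7, at −0.62, −0.45 and −0.43. The call of Tgfb2 was lost without replicate 2 of 24h (adjusted p = 0.16) or replicate 2 of 2h (0.0753), that of Tgfb3 without replicate 2 or 3 of 24h (0.0833 and 0.185) or replicate 1 or 3 of 2h (0.131 and 0.223) and with the replicate number as a block (0.0614), and that of Smad7 without replicate 1 of 24h (0.0595). Of 31 insulin, AKT, mTOR and FOXO genes 9 were higher and 6 lower (median 0.06). Igfbp3, which binds insulin-like growth factors, had 221, 163 and 212 CPM at 24h and 72.3, 76.3 and 80.996 CPM at 2h (1.38 ± 0.12, adjusted p = 2.32e-09), Klhl24 changed by 1.22 ± 0.14, and Deptor, an mTOR inhibitor, by −0.98 ± 0.11. Of 13 interferon and antigen presentation genes 6 were higher and 0 lower (median 0.29), with H2-K1, a class I antigen chain, at 1.499 ± 0.16, Stat2 at 1.45 ± 0.16 and H2-D1 at 0.57 ± 0.13. Class I genes are near copies of each other, and their counts are uncertain for that reason. In this list 1 gene was lower without replicate 1 of 24h or replicate 1 of 2h. Of 18 NF-kappaB genes and chemokines 1 was higher, Birc3 (0.83 ± 0.16), and 1 lower, Csf1 (−0.35 ± 0.09). The higher genes numbered 2 without replicate 2 or 3 of 2h, and the lower ones 5 without replicate 2 of 24h, 3 without replicate 3 of 24h and 2 without replicate 2 of 2h. Ccl2, a chemokine, spread widely at 24h, with 6.10, 36.5 and 20.7 CPM against 32.3, 36.8 and 40.4 CPM at 2h, and was called lower only without replicate 2 of 24h (−1.43, adjusted p = 0.000415).

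Circadian clock genes moved in both directions. Of 17 tested 8 were lower, 6 were higher and 3 did not pass (median −0.16), beside 5 higher and 2 lower at 2h. Arntl, which encodes the activator BMAL1, had 35.6, 26.5 and 35.2 CPM at 24h and 9.74, 11.9 and 10.7 CPM at 2h (1.59 ± 0.16, adjusted p = 2.21e-08). Several genes that BMAL1 and CLOCK switch on were lower, while others, the repressors Bhlhe40 and Bhlhe41, were higher, at 0.42 and 0.74. The call of Bhlhe40 was lost without replicate 3 of 24h or replicate 3 of 2h (adjusted p = 0.0596 and 0.0625). Nr1d2, the repressor REV-ERB beta, had 32.2, 22.7 and 24.6 CPM at 24h and 66.5, 61.6 and 69.3 CPM at 2h (−1.31 ± 0.11, adjusted p = 6.17e-10), and Nr1d1, REV-ERB alpha, 2.55, 3.12 and 3.83 CPM at 24h and 12.4, 8.55 and 8.87 CPM at 2h (−1.64 ± 0.19, adjusted p = 1.87e-07). The PAR-bZIP factors Tef and Dbp had 30.4, 18.7 and 24.3 and 0.782, 0.665 and 1.69 CPM at 24h, against 80.3, 83.7 and 65.2 and 3.26, 5.16 and 3.39 CPM at 2h (−1.65 ± 0.13 and −1.92 ± 0.37). Per2 and Per3 changed by −1.06 and −0.98, and Per1 did not pass (−0.16). Each time was sampled once on the clock, so time in culture or the phase of the clock cannot be told apart from time in hypoxia.

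Each list of RNA handling genes below counted more lower than higher genes. Over all genes tested 17.9% were higher and 16.5% lower, and in the decile with the highest mean level 37.7% were lower. The part of level in these counts was not tested. Of 27 splicing regulators 13 were lower, 4 were higher and 10 did not pass (median −0.20). Hnrnpa1, a splicing repressor, had 497, 526 and 540.2 CPM at 24h and 819, 835 and 845 CPM at 2h (−0.68 ± 0.07, adjusted p = 6.99e-08), and the SR proteins Srsf1 and Srsf4 changed by −0.51 ± 0.08 and −0.65 ± 0.12. Cirbp, a cold-inducible RNA-binding protein, was the higher gene with the largest change (1.18 ± 0.29, adjusted p = 0.00226). Clk1, Clk3 and Rsrp1 were the other higher ones, at 0.31, 0.35 and 0.26. The call of Clk1 was lost without replicate 1 of 24h or replicate 2 of 2h (adjusted p = 0.0866 and 0.0833), that of Clk3 without replicate 1 or 3 of 2h (0.0565 and 0.056), and that of Rsrp1 without any 1 library but replicate 2 of 24h (0.0529 to 0.131). Of 16 genes of miRNA processing 8 were lower, 0 were higher and 8 did not pass (median −0.25). Drosha, which cuts primary miRNA hairpins in the nucleus, had 144, 129.7 and 144 CPM at 24h and 234, 219 and 203 CPM at 2h (−0.65 ± 0.09, adjusted p = 2.22e-06). Xpo5, which exports the hairpins, had 179, 173 and 179.6 CPM at 24h and 267, 287 and 296 CPM at 2h (−0.68 ± 0.07, adjusted p = 6.71e-08), and Dicer1, which cuts them in the cytoplasm, and Dgcr8, the partner of Drosha, changed by −0.53 and −0.41. Of 20 factors of AU-rich elements and deadenylation 9 were lower and 5 higher (median −0.07), with Celf1 among the lower genes at −0.59 ± 0.08. The higher genes were Btg2, Tob1, Tia1, Cnot7 and Cnot8, at 0.95, 0.68, 0.33, 0.31 and 0.26. The call of Cnot7 was lost without replicate 2 of 2h (adjusted p = 0.0995), and that of Cnot8 without replicate 2 or 3 of 24h (0.0557 and 0.0844) or replicate 1 or 3 of 2h (0.0635 and 0.147). Of 22 nuclear noncoding RNAs and paraspeckle proteins 9 were lower and 2 higher (median −0.24). Mir17hg, the host of the miR-17-92 cluster, had 18.8, 19.8 and 17.2 CPM at 24h and 31.2, 35.2 and 39.5 CPM at 2h (−0.93 ± 0.11, adjusted p = 4.88e-07). Malat1, a nuclear lncRNA of speckles, was called higher (0.33 ± 0.11, adjusted p = 0.0176), but not without replicate 2 of 2h (0.25, adjusted p = 0.125), and Mir22hg (0.36 ± 0.11) lost its call without replicate 2 of 24h (0.31, adjusted p = 0.0671) or replicate 1 of 2h (0.30, adjusted p = 0.0926).

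Chromatin genes included Sfmbt2, the Polycomb gene whose intron holds the miR-466c hairpins. Sfmbt2 (chr2:10370510-10595253) had 43.5, 32.9 and 36.6 CPM at 24h, against 23.9, 23.1 and 20.6 CPM at 2h, without overlap (0.74 ± 0.13, adjusted p = 5.79e-05), after an early change of −0.05 ± 0.13. Of 27 Polycomb genes 6 were higher, 9 were lower and 12 did not pass (median −0.20). The methyltransferases split, with Ezh1 at 0.88 ± 0.16 (adjusted p = 0.000118) and Ezh2 at −0.37 (adjusted p = 0.00136), and Phc2 had 41.7, 46.7 and 51.8 CPM at 24h and 86.3, 88.8 and 73.7 CPM at 2h (−0.83 ± 0.11, adjusted p = 1.47e-06). Of 18 JmjC histone demethylases, oxygen-dependent enzymes, 5 were higher and 1 lower (median 0.17), beside 5 higher and 0 lower at 2h. Kdm4b had 61.5, 72.4 and 75.7 CPM at 24h and 39.7, 48.7 and 30.5 CPM at 2h (0.81 ± 0.13, adjusted p = 2.87e-05), Kdm5b and Kdm4a changed by 0.46 ± 0.11 and 0.43 ± 0.09, Kdm7a and Jmjd6 by 0.76 and 0.30, and Kdm2b was the lower gene (−0.35, adjusted p = 0.032). The call of Kdm2b was lost without replicate 2 or 3 of 24h (adjusted p = 0.144 and 0.0563) or replicate 1 or 2 of 2h (0.0688 each), and with upper-quartile scaling (0.0655) or only the compared libraries (0.0564). Those of Kdm7a and Jmjd6 were lost without replicate 2 of 24h (0.175) and replicate 3 of 2h (0.0611), in that order. Autophagy and lysosome genes were higher, with 18 of 29 higher, 0 lower and 11 not passing (median 0.45), beside 2 higher and 0 lower at 2h. Map1lc3b, the LC3 protein of autophagosomes, had 159, 159.7 and 152 CPM at 24h and 90.9, 98.5 and 92.8 CPM at 2h (0.74 ± 0.08, adjusted p = 1.00e-07), and Ctsd, cathepsin D, changed by 0.73 ± 0.09. Tfeb and Tfe3, transcription factors of lysosomal genes, did not pass (−0.26 and −0.22), but Tfe3 did without replicate 3 of 24h or replicate 3 of 2h (−0.29, adjusted p = 0.042 and 0.0479). In each of those fits 1 gene of the list was lower.

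Beyond these groups, the largest changes among well-covered genes included several with no called early change. Tenm4, a teneurin cell-surface protein, had 62.3, 51.0 and 48.6 CPM at 24h and 2.18, 2.73 and 2.30 CPM at 2h, a 22.3-fold change (4.48 ± 0.17, adjusted p = 6.77e-16). Ndrg2, a relative of Ndrg1, had 43.5, 55.3 and 45.0 CPM at 24h and 1.81, 3.51 and 1.70 CPM at 2h (4.32 ± 0.20, adjusted p = 1.85e-14). Krt19, keratin 19, had 135, 139 and 162 CPM at 24h and 25.1, 27.6 and 22.5 CPM at 2h (2.53 ± 0.14, adjusted p = 6.02e-13), and Lbp, which binds lipopolysaccharide, 136, 162 and 141 CPM at 24h and 25.1, 30.7 and 28.2 CPM at 2h (2.38 ± 0.11, adjusted p = 1.04e-14). Their early changes of 0.08, 0.64, −0.08 and −0.11 did not pass. Among the losses, Prl2c2 (proliferin) had 67.7, 54.1 and 37.2 CPM at 24h and 306, 305 and 367 CPM at 2h (−2.62 ± 0.16, adjusted p = 3.81e-12). Prl2c2 belongs to a family of near-identical copies, so its reads may be those of its relatives. U90926 had 13.97, 15.4 and 12.8 CPM at 24h and 72.8, 82.0 and 80.9 CPM at 2h (−2.48 ± 0.16, adjusted p = 2.65e-11). Hmga1, an architectural chromatin protein with many pseudogenes, had 32.4, 15.5 and 31.5 CPM at 24h and 91.6, 103 and 93.6 CPM at 2h (−1.86 ± 0.17, adjusted p = 2.43e-09). Adam12, a membrane metalloprotease, changed by −1.69 ± 0.12, and Samd5 by −1.87 ± 0.16.

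The late nuclear change was then compared between the lines, which have no library in common. The difference of changes, C1.1 minus C166, was positive for 232 genes (1.47% of 15735) and negative for 151 (0.96%) by the same edgeR fit. With upper-quartile scaling the split was 164 positive and 190 negative, so the balance of the signs rests on the scaling. The total of 383 was unstable, at 693 without replicate 1 of C166 at 24h, and at 204, 227, 247, 231 and 218 without replicate 2 or 3 of C1.1 at 24h, replicate 3 of C166 at 24h, or replicate 1 or 3 of C166 at 2h. Of the 15 contractile genes 6 were among those called. Cnn1 had 2.28, 3.56 and 5.19 CPM at 24h and 2.27, 3.01 and 1.85 CPM at 2h in C1.1, against 12.4, 20.2 and 18.03 CPM at 24h and 53.5, 50.5 and 55.7 CPM at 2h in C166, a difference of 2.28 ± 0.33 (adjusted p = 0.000147). Acta2 had 261, 255 and 263 CPM at 24h and 384, 391 and 406 CPM at 2h in C1.1, so its change of −0.60 ± 0.11 there was smaller than the one of −2.14 ± 0.11 in C166 (difference 1.54 ± 0.15, adjusted p = 6.85e-07). Cnn1 was lower in C1.1 at 2h than in C166 at 24h, while the libraries of Acta2 in those groups overlapped. Myl9 had a log2 change of 0.00 ± 0.11 in C1.1, which did not pass, and of −2.24 ± 0.11 in C166 (difference 2.24 ± 0.15, adjusted p = 1.30e-09).

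Single genes with large differences between the lines follow. Dcn, the proteoglycan decorin, had 233, 184 and 177 CPM at 24h and 72.3, 50.1 and 59.1 CPM at 2h in C1.1, against 5.53, 10.7 and 6.30 CPM at 24h and 16.8, 19.0 and 22.3 CPM at 2h in C166. It changed in opposite directions, by 1.71 ± 0.17 in C1.1 and −1.35 ± 0.19 in C166 (difference 3.06 ± 0.26, adjusted p = 5.47e-08). Serpinf1, the antiangiogenic factor PEDF, had 111, 89.4 and 94.7 CPM at 24h and 90.2, 98.3 and 101 CPM at 2h in C1.1, against 0.834, 0.707 and 0.958 CPM at 24h and 6.01, 4.501 and 4.49 CPM at 2h in C166 (difference 2.60 ± 0.25, adjusted p = 6.63e-07). Its change in C1.1 (0.03) did not pass, and every C166 library lay far below every C1.1 library. Ptx3, a secreted pattern-recognition protein, differed by 2.47 ± 0.57 (adjusted p = 0.0196), a call lost without replicate 1 or 2 of C1.1 at 2h (adjusted p = 0.0748 and 0.0774) or replicate 2 of C1.1 at 24h (0.0601). With only the libraries compared, 12 of the 35 line differences of named genes lost their call, among them those of Ptx3 and Tef (adjusted p = 0.0692 and 0.0831). Tmem45a had 208, 218 and 236 CPM at 24h and 22.7, 27.7 and 18.7 CPM at 2h in C1.1, so it was higher there at 2h than in C166 at 24h and changed by less, 3.26 ± 0.17 against 5.81 ± 0.32 (difference −2.56 ± 0.43, adjusted p = 0.000816). Ndrg2 had 61.8, 65.8 and 66.5 CPM at 24h and 16.5, 16.4 and 20.3 CPM at 2h in C1.1 (difference −2.45 ± 0.26, adjusted p = 1.86e-06), and Dkk1 had 175, 158 and 145 CPM at 24h and 46.8, 63.0 and 49.2 CPM at 2h (difference −2.04 ± 0.28, adjusted p = 8.42e-05). U90926 had 0 counts in C1.1 at 24h and 97 at 2h, at least 36.9-fold lower, against a 5.58-fold decrease in C166, so the fitted difference of −5.68 ± 1.11 (adjusted p = 0.00451) depends on the prior count. The clock genes Nr1d2, Nr1d1, Tef and Dbp, which fell in C166, had log2 changes of −0.28, 0.17, −0.86 and 0.49 in C1.1, of which those of Nr1d1 and Dbp did not pass (differences 1.03, 1.81, 0.78 and 2.41, adjusted p = 0.000147, 0.000147, 0.0149 and 0.00625). Vegfa, Map2k1 and Sfmbt2 did not differ past the threshold, at −0.18 ± 0.14, −0.30 ± 0.12 and 0.03 ± 0.18 (adjusted p = 0.586, 0.227 and 0.964).

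**Figure D4:**
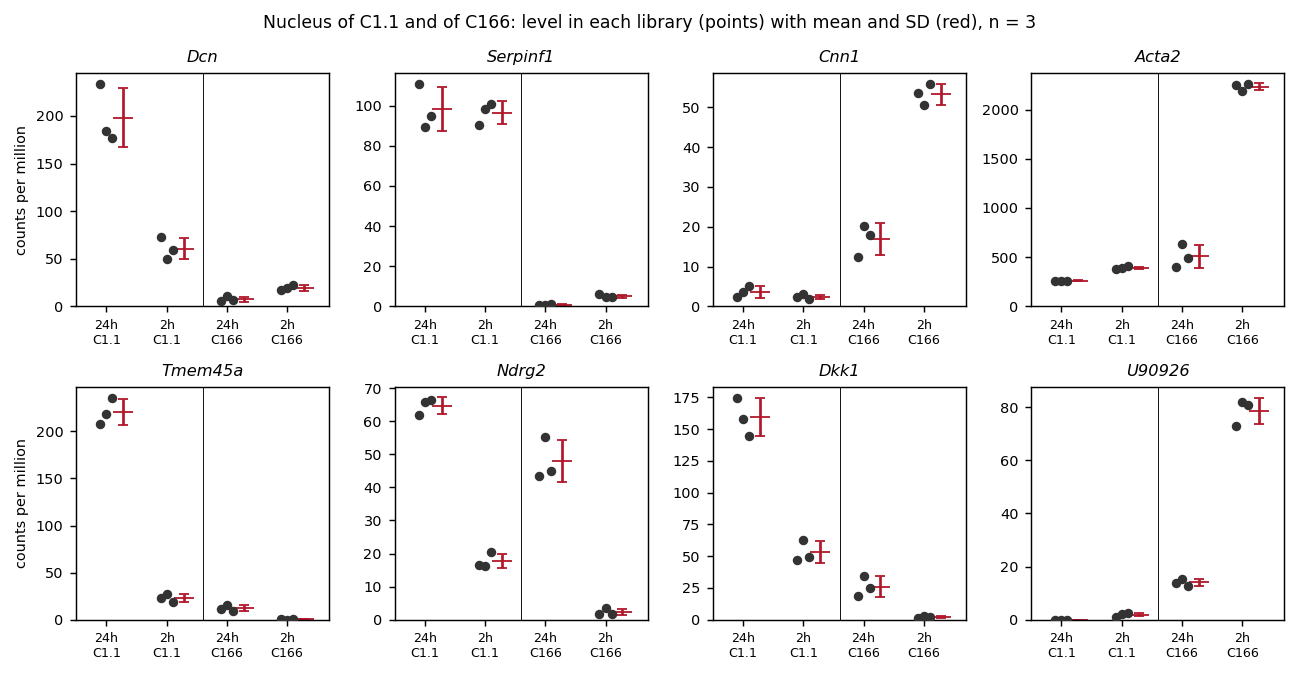
Level in CPM (y axis, from 0) of 8 genes in each nuclear library of C1.1 at 24h and 2h and of C166 at 24h and 2h (black points), with group means and SD in red. Dcn is higher at 24h than at 2h in C1.1 and lower in C166, and Cnn1 at 2h in C1.1 lies below its level at 24h in C166.

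The nucleus was last compared with the cytoplasm of the same line, in a fit of all 36 libraries. The late change was higher in the nucleus than in the cytoplasm for 120 genes (0.719% of 16682 tested) and lower for 137 (0.821%). The balance of signs turned with RLE scaling (148 and 130), upper-quartile scaling (153 and 144), DESeq2 (353 and 291) and only the libraries compared (44 and 17). It also turned without replicate 1, 2 or 3 of the nucleus at 24h (209 and 80, 56 and 23, 80 and 19), replicate 1 of the nucleus at 2h (33 and 12), replicate 1 of the cytoplasm at 24h (398 and 181) and replicate 2 or 3 of the cytoplasm at 2h (107 and 106, 147 and 97). The total of 257 was unstable as well. In the nucleus it was 79 and 99 without replicate 2 or 3 of 24h and 45 and 159 without replicate 1 or 2 of 2h. In the cytoplasm it was 579, 83 and 132 without replicate 1, 2 or 3 of 24h and 120 without replicate 1 of 2h. Neat1, the noncoding RNA that builds paraspeckles, had 2701, 2422 and 2324 CPM at 24h and 3846, 3033 and 2998 CPM at 2h in the nucleus, against 301, 260.5 and 297 CPM at 24h and 147, 131 and 115 CPM at 2h in the cytoplasm. It fell in the nucleus and rose in the cytoplasm (−0.41 ± 0.12 and 1.13 ± 0.12, difference −1.53 ± 0.17, adjusted p = 1.60e-06). Kmt2d, a histone H3 lysine 4 methyltransferase, changed by −0.44 in the nucleus and 0.67 in the cytoplasm (difference −1.11 ± 0.21, adjusted p = 0.00269). Pdk1 rose in both, with 173, 138 and 144 CPM at 24h and 41.2, 43.8 and 37.5 CPM at 2h in the nucleus, against 319, 283 and 328 CPM at 24h and 40.5, 47.3 and 35.5 CPM at 2h in the cytoplasm (difference −1.02 ± 0.17, adjusted p = 0.00133). Egln1 likewise had 218, 197 and 204 CPM at 24h and 88.6, 93.1 and 78.4 CPM at 2h in the nucleus, against 649, 669 and 792 CPM at 24h and 151, 177 and 161 CPM at 2h in the cytoplasm (difference −0.86 ± 0.15, adjusted p = 0.00133). Both genes rose less in the nucleus than in the cytoplasm. Iqsec1 (difference −1.03 ± 0.26, adjusted p = 0.0336) lost its call in 10 of 12 leave-one-out fits. With only the libraries compared, 14 of the 20 fraction differences of named genes lost their call, that of Kmt2d included (adjusted p = 0.0525), while those of Neat1, Pdk1, Egln1, Lpcat3, Ptdss1 and Creld2 were called. The sources used here do not say whether nuclear and cytoplasmic libraries with the same number came from 1 culture. With such pairs as a block, 203 genes were called, 97 higher and 106 lower in the nucleus, and of the differences named those of Fkbp11 and Tnrc6a lost their call (adjusted p = 0.0559 and 0.0604).

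Other genes had a difference of the opposite sign. Lpcat3, which inserts polyunsaturated chains into phospholipids, had 105, 113 and 112 CPM at 24h and 47.6, 53.04 and 43.6 CPM at 2h in the nucleus, against 41.4, 23.8 and 27.3 CPM at 24h and 29.8, 27.2 and 28.5 CPM at 2h in the cytoplasm (difference 1.08 ± 0.20, adjusted p = 0.00225). Ptdss1, phosphatidylserine synthase 1, had 60.0, 90.6 and 74.1 CPM at 24h and 71.1, 66.0 and 64.1 CPM at 2h in the nucleus, against 60.9, 42.2 and 48.7 CPM at 24h and 101, 106 and 96.6 CPM at 2h in the cytoplasm (difference 1.16 ± 0.20, adjusted p = 0.00133). It fell in the cytoplasm and did not pass in the nucleus (−1.0001 and 0.16). Of the 22 ER chaperone genes, 12 were higher and 1 lower in the nucleus, while 3 were higher and 7 lower in the cytoplasm (medians 0.32 and −0.28, against 0.01 for all genes in both). In the cytoplasm 13.8% of all 16682 genes tested were higher at 24h and 15.8% lower. Of the ER chaperone genes, 3 passed the test of the difference. They were Calr, calreticulin, with 0.36 in the nucleus and −0.62 in the cytoplasm (adjusted p = 0.023), Creld2 with 0.43 and −0.43 (adjusted p = 0.00756), and Manf with 0.23 and −0.53 (adjusted p = 0.021). Hspa5 itself did not pass (0.70 ± 0.25, adjusted p = 0.149). The calls of Calr and Manf, and those of C1galt1c1 (1.16 ± 0.29, adjusted p = 0.0256) and Fkbp11 (1.13 ± 0.28, adjusted p = 0.0271), were lost without replicate 1 of the nucleus at 2h (adjusted p = 0.0722, 0.0555, 0.113 and 0.0954) or replicate 2 of the cytoplasm at 24h (0.0616, 0.0538, 0.121 and 0.121), among other libraries. Vegfa had 164, 131 and 141 CPM at 24h and 91.2, 98.8 and 88.7 CPM at 2h in the nucleus, against 96.3, 92.7 and 83.9 CPM at 24h and 70.0, 61.9 and 61.2 CPM at 2h in the cytoplasm, and its changes of 0.65 and 0.50 did not differ past the threshold (0.15 ± 0.16, adjusted p = 0.799). In this fit the nuclear values differ slightly from those above because all 36 libraries set the scale.

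**Figure D5:**
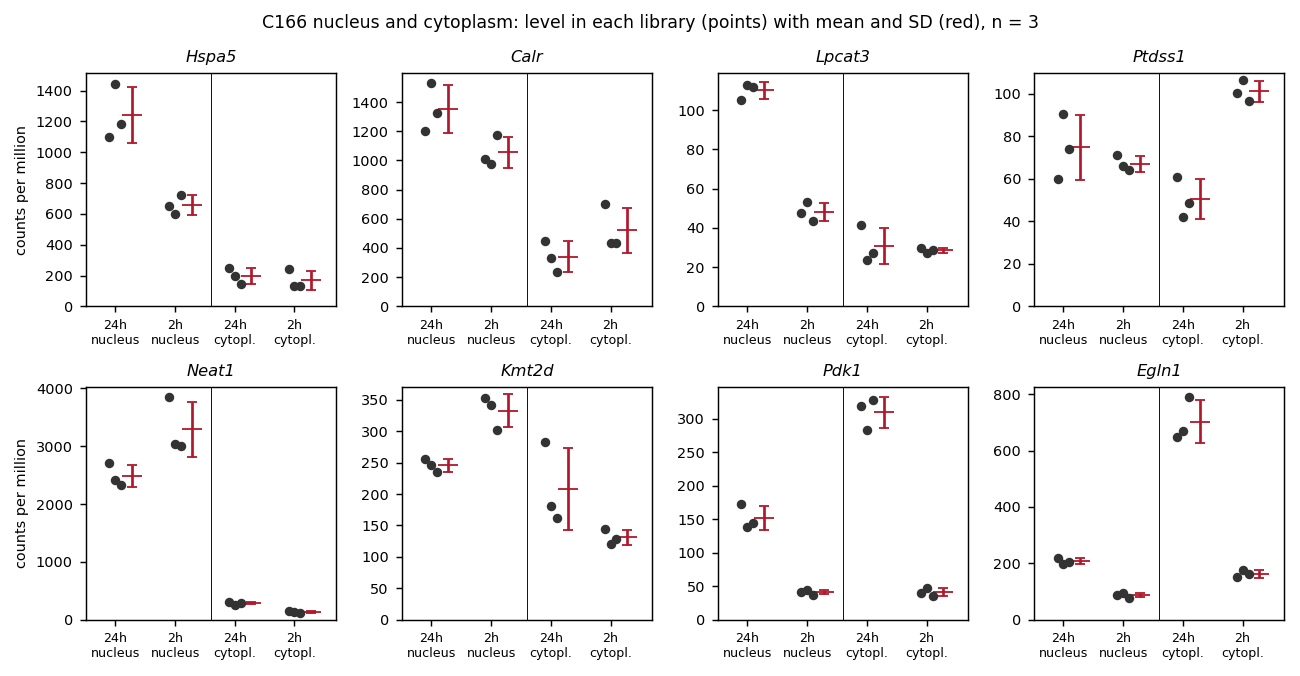
Level in CPM (y axis, from 0) of 8 genes in each C166 library of the nucleus at 24h and 2h and of the cytoplasm at 24h and 2h (black points), with group means and SD in red. Neat1 is lower at 24h than at 2h in the nucleus and higher in the cytoplasm, and Ptdss1 is lower at 24h in the cytoplasm while its nuclear groups overlap.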

How the data were processed

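Ribosome-depleted nuclear and cytoplasmic RNA was sequenced from C166 cells and the C1.1 mutant line at normoxia, 2h of 1% oxygen and 24h of 1% oxygen, with 3 libraries in each of 12 groups. The authors deposited whole-number counts per gene, not normalized. The submitters' processing notes name build GRCm38, Bowtie2 2.2.2, TopHat2 2.0.11, Cufflinks 2.2.1, Cuffdiff, featureCounts and edgeR, without the role of each. The libraries were stranded, but the strand setting of the counting is not given in the sources used here, so overlapping, antisense and near-identical genes are uncertain. The table also holds 36 normalized columns and the authors' comparisons (fold changes and p-values), none of which was used.

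The 18 nuclear libraries in 6 groups were fitted together with edgeR 4.0.16 in R 4.3.3 (limma 3.58.1), with TMM scaling, filterByExpr, the quasi-likelihood F-test and Benjamini-Hochberg adjustment over all genes tested, at a threshold of 0.05. The fraction difference came from a fit of all 36 libraries. Errors of log2 changes are standard errors. The alternatives were upper-quartile and RLE scaling, no filter, only the compared libraries, a replicate block, for the fraction difference also a block of same-numbered nuclear and cytoplasmic libraries (chosen after seeing the data), a 2-fold minimum, leaving out each library, and DESeq2 1.42.0. The procedure was tested on simulated data. Groups came from the sample labels. Coordinates are those of GENCODE M21, which matched 24311 of 26400 symbols. By rule the genes named were Vegfa, Map2k1 and Sfmbt2, which the study follows, the members with the smallest p in each list (at most 3), the 12 higher and 12 lower genes with the largest called, non-overlapping changes among genes above the median level, and the 4 largest differences of each sign between lines and fractions under the same conditions, leaving out predicted genes and clones; some of these are not reported here. The members and lists were chosen with earlier results of these data known, and other genes named were chosen after their values were seen.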

Additional observations from a re-analysis of the deposited data

Results flagged for a closer look

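Among the genes named, 35 changed between 2h and 24h by a different amount in the nucleus of C1.1 than in that of C166, by the interaction term of the edgeR fit with Benjamini-Hochberg adjustment. The log2 difference, C1.1 minus C166, was positive for Egr1 (1.61), Myl9 (2.24), Acta2 (1.54), Col12a1 (0.87), Bmp4 (0.68), Tef (0.78), Nr1d2 (1.03), Cnn1 (2.28), Serpinf1 (2.60), Adam12 (0.91), Dcn (3.06), Ptx3 (2.47), Col18a1 (0.997), Loxl3 (0.81), Dbp (2.41), Nr1d1 (1.81), Per3 (0.78), Col6a3 (1.88) and Pgf (2.93). It was negative for Car12 (−0.89), Gpt2 (−0.96), Hspa5 (−0.61), Rn7s2 (−2.76), Igfbp3 (−1.05), Ltbp1 (−0.40), Dkk1 (−2.04), Tmem45a (−2.56), Ndrg2 (−2.45), Aldh1l2 (−0.75), U90926 (−5.68), Lpcat3 (−0.52), Hyou1 (−0.54), Shmt2 (−0.45), Thbs1 (−1.11) and Slc2a1 (−0.51). The differences of Car12, Hspa5, Rn7s2, Ltbp1, Ptx3, Lpcat3, Hyou1, Shmt2, Loxl3, Per3, Pgf and Slc2a1 lost their call in at least 1 fit without 1 of the 12 libraries. That of Per3 was lost without any 1 library but replicate 3 of C166 at 24h. Those of Ltbp1, Lpcat3, Hyou1 and Slc2a1 were lost in most of these fits. The fitted value of U90926 rests on a group with 0 counts and is no bound.

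Among the same genes, 20 changed by a different amount in the nucleus of C166 than in its cytoplasm. The log2 difference, nucleus minus cytoplasm, was positive for C1galt1c1 (1.16), Ptdss1 (1.16), Fkbp11 (1.13), Lpcat3 (1.08), Calr (0.98), Creld2 (0.86), Manf (0.77), Axl (0.77) and Serpinh1 (0.86). It was negative for Egln1 (−0.86), Hif1an (−0.74), Rpl4 (−0.42), Tnrc6a (−0.43), Neat1 (−1.53), Kmt2d (−1.11), Iqsec1 (−1.03), Pdk1 (−1.02), Pgk1 (−0.50), Ago2 (−0.73) and Tnrc6b (−0.67). The differences of Ago2, Axl, C1galt1c1, Calr, Fkbp11, Hif1an, Iqsec1, Manf, Pgk1, Rpl4, Serpinh1, Tnrc6a and Tnrc6b lost their call in at least 1 fit without 1 of the 12 libraries. That of Rpl4 was lost without any 1 library but replicate 1 of the cytoplasm at 24h, and that of Iqsec1 in most of these fits.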

How the results depend on the processing

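The count of 5404 genes changed between 2h and 24h was 4261 to 5738 with upper-quartile or RLE scaling, no filter on low counts, only the compared libraries, or DESeq2, and 4458 to 5465 with 1 library left out. With a 2-fold minimum it was 1283. The split of 2815 higher and 2589 lower genes was 3098 and 2263 with upper-quartile scaling. Lower genes were more numerous with no filter (2677 higher and 2716 lower) and without replicate 2 of 24h (2491 and 2543). This also held without replicate 1 or 2 of 2h (2223 and 2235, 2306 and 2503). In the other fits the higher genes were more numerous. The early count of 362 was 699 with only the compared libraries and 78 with a 2-fold minimum, and 193 to 292 with 1 library left out. The line difference of 383 genes was 604 with no filter, 150 with only the compared libraries, 597 with DESeq2 and 137 with a 2-fold minimum, and 204 to 693 with 1 library left out. The fraction difference of 257 genes was 564, 61, 644 and 26 under the same settings in that order, and 45 to 579 with 1 library left out. The cause of these shifts was not tested, except that a 2-fold minimum removes small changes by construction.

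Signs turned for values that did not pass. Csf1r was −0.17 without replicate 2 of 24h, Scap was 0.0019 with upper-quartile scaling and 0.064 without replicate 1 of 24h, Kdm3a was −0.047 and Mki67 was −0.027 in a fit with 1 library left out, Siah2 was −0.10 without replicate 1 of 24h, and Nfe2l2 was 0.026 with upper-quartile scaling and 0.12 without replicate 2 of 24h. Of 273 genes named, 243 had a late call, 38 of these lost it and 10 others gained one in some fit with 1 library left out. Deviations from group means were correlated between libraries, but with 3 libraries a group this cannot tell whether same-numbered libraries were paired. Between C166 nuclei at 24h and 2h, same-numbered libraries gave 0.0509, 0.0319 and −0.0478, and libraries of different number −0.1 to 0.0853. Between nucleus and cytoplasm at 24h the values were 0.0889, 0.0973 and 0.0164, against −0.0895 to 0.00292 for different numbers. At 2h they were 0.0199, 0.0438 and −0.0146, against −0.0413 to 0.025. With the replicate number as a block (replicate block) the counts were 5307, 347, 336 and 264 for the late, early, line and fraction comparisons. The late calls of Rras and Tgfb3 and the line differences of Rn7s2 and Lpcat3 were lost under it, and no fraction difference of a named gene was. Under a block of same-numbered nuclear and cytoplasmic libraries the fraction count was 203. Depth limits what can be called among the genes with few reads.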
